A study of Mus musculus with 22 samples.

Results

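Expression of 8 genes used as markers of the hippocampal subfields was examined in the right brain hemispheres of dominant and submissive mice. Prox1, Dsp, C1ql2 and Tdo2 mark the granule cells of the dentate gyrus, and Wfs1, Fibcd1, Pou3f1 and Spink8 mark the pyramidal cells of the CA fields, mainly CA1. The genes were chosen by name from 24421 genes in the count tables, and all 8 were found in both tables. The labels spell the inbred strain of the 22 mice as C57B6/J OlaHsd, and the paper's methods spell it in another way. The mice carried no transgene or other treatment according to the labels. They were ranked at 10 to 12 weeks of age by the tube test. In this test, cage mates meet head on in a narrow tube, and the one that backs out loses. The groups were 7 dominant males, 7 submissive males, 4 dominant females and 4 submissive females, and a dominant and a submissive animal came from each cage or housing group. Cages are numbered here as their mice are, so that dominant male 1 and submissive male 1 shared cage 1, and for females 3 and 4 the labels give a group in place of a cage. By the paper's methods, females of intermediate rank were put together in new groups of 4 and ranked again after 1 week. The labels do not say whether females 3 and 4 came from such groups. The males lie in 1 count table and the females in another with a different sequencing project, so sex and project cannot be told apart. Hemispheres hold many regions of the brain, so fewer cells of a type and less RNA per cell cannot be told apart either.

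The hippocampus passes information from the dentate gyrus through the CA fields to the cortex. Dentate granule cells send their mossy fibres to CA3, and CA1 pyramidal cells form the main output to other regions. The subfield identity of these cells is kept up by transcription factors, and stress hormones act on dentate and CA neurons alike. Such markers need not be restricted to the hippocampus in a whole hemisphere, since Prox1 is also used by some cortical interneurons, and Wfs1 and Pou3f1 are also used by cortical neurons.

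Between 12403943 and 16488762 reads per sample were counted on genes. The sex labels were checked with the Y-linked Ddx3y, at 145.7 to 177 CPM in males (CPM, read counts scaled to library size with TMM factors) and 0 counts in every female. 1 library stood apart in its cerebellar markers, since the summed level of the Purkinje cell genes Pcp2, Ppp1r17 and Car8 was 18.9 CPM in dominant male 1 against 259 to 514 CPM in the other males. The markers of the hippocampal fields outside the 8 genes were present in every sample. The 9 other dentate genes summed to 407 to 473 CPM in males and 436 to 486 CPM in females, and the 5 other CA1 genes to 252 to 318 CPM and 281 to 319 CPM.

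On mm10, the 8 genes lie on 7 chromosomes and share no exon base with another gene of the count tables. Wfs1 lies on chromosome 5 (36966104 to 36988982, minus strand, 8 exons), Fibcd1 on chromosome 2 (31813290 to 31846005, minus strand, 7 exons), Pou3f1 on chromosome 4 (124657646 to 124660655, plus strand, 1 exon) and Spink8 on chromosome 9 (109816627 to 109826627, plus strand, 5 exons). Among the dentate genes, Prox1 (190121777 to 190170680, minus strand, 5 exons) and C1ql2 (120340582 to 120343174, plus strand, 2 exons) lie on chromosome 1, Dsp on chromosome 13 (38151294 to 38198577, plus strand, 24 exons) and Tdo2 on chromosome 3 (81958414 to 81975728, minus strand, 12 exons). In the GENCODE annotation of the same build, 133 exon bases of Prox1 lie opposite Prox1os and 499 exon bases of Dsp lie opposite Gm10129. The strand setting of the counting is not given in the sources used here, so the values of Prox1 and Dsp are uncertain by the reads of these bases.

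The results below turn on Wfs1, Fibcd1, C1ql2 and Pou3f1, and the 250 bases before the RefSeq start sites of the first 3, which the RefSeq table holds, are shown (build GRCm38.p6, each read on the strand of its gene). The windows are chr5:36988983-36989232 for Wfs1, chr2:31846006-31846255 for Fibcd1 and chr1:120340332-120340581 for C1ql2. Capitals mark the letters GGGCGG (GC box) and TGACG (the half-site of the cAMP response element), searched on both strands.
Wfs1: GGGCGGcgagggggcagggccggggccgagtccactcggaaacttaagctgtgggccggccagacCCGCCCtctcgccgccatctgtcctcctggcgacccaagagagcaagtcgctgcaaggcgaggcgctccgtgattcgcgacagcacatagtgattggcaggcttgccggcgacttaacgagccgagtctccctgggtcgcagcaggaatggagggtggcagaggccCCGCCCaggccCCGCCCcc
Fibcd1: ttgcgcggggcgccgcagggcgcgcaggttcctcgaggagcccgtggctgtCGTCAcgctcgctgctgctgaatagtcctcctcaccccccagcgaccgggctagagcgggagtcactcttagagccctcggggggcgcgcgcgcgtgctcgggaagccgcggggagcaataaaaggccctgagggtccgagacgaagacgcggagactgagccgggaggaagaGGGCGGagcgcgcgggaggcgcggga
C1ql2: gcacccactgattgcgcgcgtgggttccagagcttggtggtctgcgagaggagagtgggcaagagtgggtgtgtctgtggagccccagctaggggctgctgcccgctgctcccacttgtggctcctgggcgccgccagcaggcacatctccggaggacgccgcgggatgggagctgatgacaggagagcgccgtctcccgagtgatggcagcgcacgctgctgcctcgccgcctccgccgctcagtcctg
Wfs1 held 4 GC boxes and Fibcd1 held 1, together with 1 half-site of the cAMP response element, while C1ql2 held neither motif. Of 32851 such windows in the RefSeq table, 32.7% held a GC box and 17.8% held the half-site. GC content was 69.6% for Wfs1, 71.6% for Fibcd1 and 68.8% for C1ql2, above the median of 52.4% over all windows. The table held 6 of the 8 genes, and Pou3f1 and Spink8 were not among them.

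Wfs1 was the most abundant of the 8 genes per exon length in both sexes. Wfs1 encodes wolframin, a membrane protein of the endoplasmic reticulum. Its level was 13.4 ± 1.38 CPM per kb (SD, n = 14) in males and 16.2 ± 0.854 (SD, n = 8) in females, and its lowest sample (10.3) lay above the highest sample of every other member (5.86). Fibcd1, a membrane receptor for acetylated groups, followed with 5.04 ± 0.599 CPM per kb (SD, n = 14) and 5.21 ± 0.348 (SD, n = 8). Prox1, the homeobox factor that keeps granule cell identity, had 4.47 ± 0.495 CPM per kb (SD, n = 14) and 4.56 ± 0.218 (SD, n = 8), so that Fibcd1 and Prox1 differed by less than the range of their samples in each sex. Spink8, a small Kazal-type protease inhibitor, had 3.55 CPM per kb in males and 3.17 in females. C1ql2, a secreted synaptic protein of mossy fibres, had 3.24 and 2.72, and Pou3f1, a POU-domain transcription factor, had 2.34 and 3.14. The samples of these 3 genes overlapped, and C1ql2 and Pou3f1 changed places in the order between the sexes. Tdo2, which opens the kynurenine pathway of tryptophan breakdown, had 1.29 CPM per kb in males and 1.39 in females. Dsp, the desmosomal linker protein desmoplakin, was lowest with 0.599 and 0.545.

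**Figure D1:**
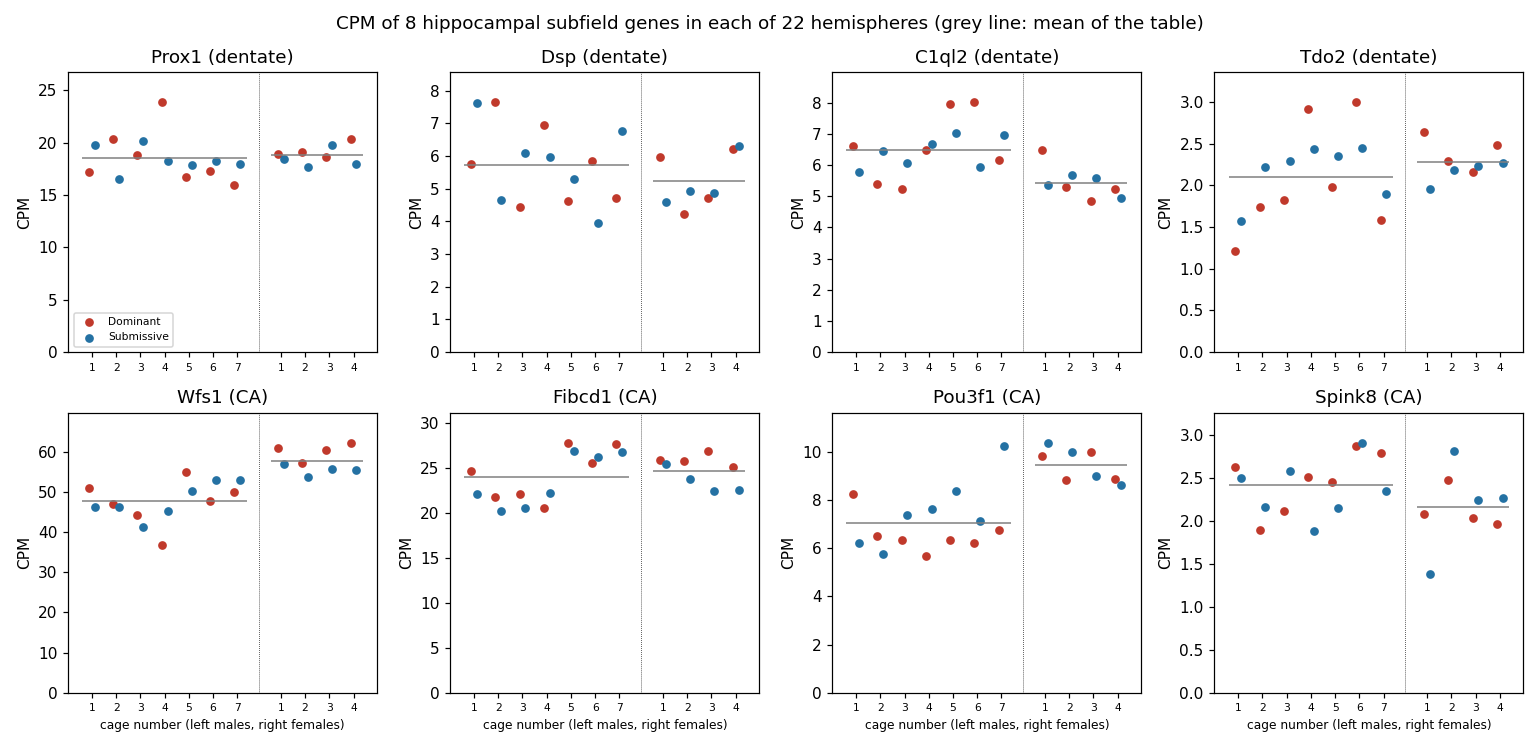
Points are the CPM of each of the 8 genes in each of the 22 hemispheres (y axis from 0) by cage or housing label (x axis, males left of the dotted line and females right), red for dominant and blue for submissive mice, and grey lines are the means over the males and over the females. Fibcd1 was higher in both mice of cages 5, 6 and 7 than in every male of cages 1 to 4, and Wfs1 was higher in the dominant mouse of all 4 female pairs.

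In males, dominant and submissive animals were compared to ask whether rank goes along with the level of the markers. Of the 8 genes, 0 had an adjusted p under 0.05 in edgeR's quasi-likelihood test, and 0 had an unadjusted p under 0.05. Over all 14737 genes tested, 0% were called and 1.32% had an unadjusted p under 0.05. The 4 dentate genes differed by -0.10 to 0.03 on the log2 scale (dominant minus submissive, standard errors 0.0798 to 0.181). For Prox1, dominant males had 15.96 to 23.9 CPM (median 17.3) and submissive males 16.5 to 20.2 CPM (median 18.2). The highest Prox1 value, 23.9 CPM, belonged to dominant male 4, which also had the lowest Wfs1 value, 36.9 CPM. For Wfs1, dominant males had 36.9 to 54.9 CPM (median 47.7) and submissive males 41.3 to 53.1 CPM (median 46.4), so the ranks overlapped over most of their range. The log2 difference of Wfs1 was -0.02 (standard error 0.0739). Pou3f1 had the largest difference in males. Its levels were 5.67 to 8.24 CPM (median 6.33) in dominant and 5.77 to 10.3 CPM (median 7.37) in submissive males, which gave a log2 difference of -0.20 (standard error 0.115, unadjusted p = 0.102 and adjusted p = 1.00 in edgeR's test). The dominant animal had less Pou3f1 in 5 of 7 cages, and the difference was -0.42 in cages 5 to 7 and -0.0033 in cages 1 to 4. It was -0.10 without submissive male 7, and ran to -0.26 without dominant male 1. Fibcd1 and Spink8 differed by 0.04 and 0.06 (standard errors 0.0837 and 0.123).

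In females, Wfs1 and Fibcd1 had the highest values in dominant animals, and neither passed the adjustment over all genes. For Wfs1, the dominant females had 61.0, 57.2, 60.5 and 62.3 CPM, and the submissive females of the same pairs had 56.9, 53.7, 55.8 and 55.5 CPM. Every dominant female lay above every submissive female, and the dominant animal was higher in 4 of 4 pairs by 0.09 to 0.17 on the log2 scale. The fitted difference was 0.11 on the log2 scale (standard error 0.0414, unadjusted p = 0.0144 and adjusted p = 0.337 in edgeR's quasi-likelihood test). In the exact permutation test over all assignments of rank, two-sided, Wfs1 had p = 0.0286, the smallest that 4 against 4 allow, and in the exact test within pairs p = 0.125, the smallest that 4 pairs allow. Over all 14865 genes tested in females, 0.0942% were called, 10.5% had an unadjusted p under 0.05 and 5.46% had ranks without overlap. The markers of other tissue in these females were compared by the same test. All 5 choroid plexus genes were lower in dominant females on average, 4 of them with an unadjusted p under 0.05 and 0 called (Kl -0.36, adjusted p = 0.0867), and their sum was 696 to 851 CPM in dominant and 665 to 1007 CPM in submissive females. All 5 cortical genes (Tbr1 0.20, adjusted p = 0.292) and all 5 thalamic genes (Plekhg1 0.22, adjusted p = 0.181) were higher on average, with 0 called. The cortical sum was 347 to 402 and 354 to 363 CPM, and the thalamic sum 153 to 173 and 124 to 156 CPM. The part of these tissues in the level of Wfs1 was not tested.

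For Fibcd1, the dominant females had 26.0, 25.8, 26.9 and 25.1 CPM, and the submissive females of the same pairs had 25.4, 23.8, 22.4 and 22.5 CPM. The ranks overlapped because submissive female 1 lay above dominant female 4. The dominant animal was higher in 4 of 4 pairs, and the fitted log2 difference was 0.13 (standard error 0.0587, unadjusted p = 0.0353 and adjusted p = 0.431 in edgeR's test; exact permutation p = 0.0571, two-sided). Wfs1 and Fibcd1 were the 2 of 8 genes with an unadjusted p under 0.05. The other CA genes, Pou3f1 and Spink8, differed by -0.02 and -0.03 (standard errors 0.0906 and 0.197). Pou3f1 had 9.83, 8.86, 10.01 and 8.89 CPM in dominant and 10.4, 10.01, 9.01 and 8.64 CPM in submissive females.

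None of the 4 dentate genes passed the test between dominant and submissive females. Prox1 differed by 0.05 (standard error 0.0645), Dsp by 0.01 (standard error 0.141) and C1ql2 by 0.01 (standard error 0.117). Tdo2 had 2.65, 2.29, 2.16 and 2.48 CPM in dominant and 1.95, 2.19, 2.24 and 2.26 CPM in submissive females, which gave a log2 difference of 0.14 (standard error 0.159, adjusted p = 0.833 in edgeR's test). Tdo2 rested on 31 to 42 counts per female.

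The difference of the rank effects between the sexes was tested itself. Of the 8 genes, 0 were called in edgeR's test of females minus males and 0 had an unadjusted p under 0.05, against 0% called and 3.32% with an unadjusted p under 0.05 among 15233 genes. The largest values were 0.25 for Tdo2, 0.18 for Pou3f1 and 0.13 for Wfs1, and the adjusted p of Wfs1 was 0.999. Leaving out 1 mouse moved each by over 1.5 times, to 0.15 for Tdo2 without dominant male 1 and 0.37 without dominant male 6, to 0.085 for Pou3f1 without submissive male 7 and to 0.084 for Wfs1 without dominant male 4. The rank effects on Wfs1 and Fibcd1 in females were thus not shown to differ from those in males.

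**Figure D2:**
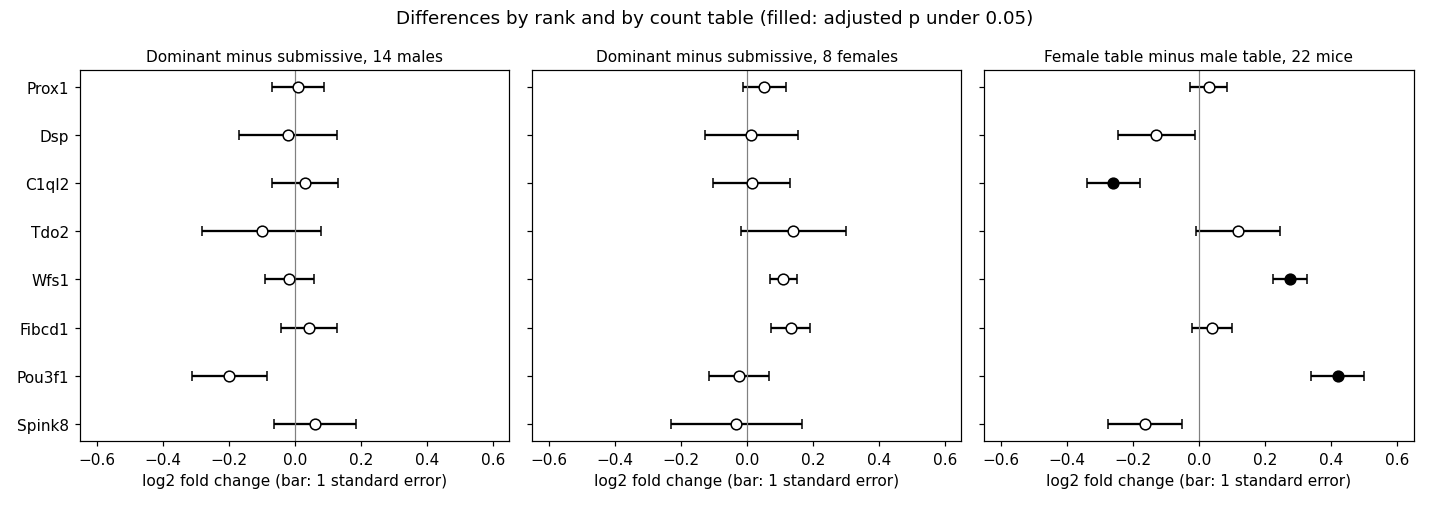
Points are log2 fold changes of the 8 genes from edgeR with bars of 1 standard error, for dominant minus submissive males (left), dominant minus submissive females (middle) and the female minus the male count table (right), and filled points have an adjusted p under 0.05. No point is filled for rank in either sex, and Wfs1, Pou3f1 and C1ql2 are filled for the tables.

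Between the count tables, Wfs1 and Pou3f1 were higher and C1ql2 was lower in females. These were 3 of 8 genes called, and 36.2% of all 15233 genes tested were called, so the share among the 8 genes was near that of all genes. Called genes were higher in females in 18.4% and lower in 17.8% of the genes tested. Wfs1 had 36.9 to 54.9 CPM (median 47.3) in males and 53.7 to 62.3 CPM (median 57.0) in females, a rise by 0.28 on the log2 scale (standard error 0.0516, adjusted p = 0.000141 in edgeR's test). The tables overlapped for Wfs1 because dominant male 5 (54.9 CPM) lay above submissive female 2 (53.7 CPM). Pou3f1 had 5.67 to 10.3 CPM (median 6.64) in males and 8.64 to 10.4 CPM (median 9.42) in females. Submissive male 7 was the only male within the range of the females. Pou3f1 rose by 0.42 on the log2 scale (standard error 0.0807 and adjusted p = 0.000191), the largest of the 8 genes. C1ql2 had 5.24 to 8.03 CPM (median 6.47) in males and 4.84 to 6.49 CPM (median 5.33) in females and differed by -0.26 on the log2 scale (standard error 0.0790 and adjusted p = 0.0120). The ranges overlapped, since dominant female 1 (6.49 CPM) lay above the median of the males. The tables overlapped for all 8 genes, and 6.10% of all genes had tables without overlap.

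The other 5 genes did not pass the test between the tables. Prox1 had a log2 difference of 0.03, Tdo2 of 0.12, Dsp of -0.13 and Spink8 of -0.16, with adjusted p-values of 0.270 to 0.719 in edgeR's test. Fibcd1 had 20.2 to 27.9 CPM (median 23.5) in males and 22.4 to 26.9 CPM (median 25.3) in females, a log2 difference of 0.04 (standard error 0.0603, adjusted p = 0.634). The CA genes summed to 65.6 to 92.5 CPM in males and 88.9 to 99.4 CPM in females, and the dentate genes to 28.4 to 40.3 CPM and 30.3 to 34.3 CPM.

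The value of Fibcd1 between the tables depended on which males were compared. Against the males of cages 1 to 4 only, the females were higher by 0.18 on the log2 scale, and against the males of cages 5 to 7 only, they were lower by a log2 difference of -0.12. This split of the cages was chosen after the data had been seen, so Fibcd1 is given without a test. The log2 fold change of C1ql2 was -0.16 against the first set (adjusted p = 0.0990 in edgeR's test) and -0.37 against the second. Wfs1 and Pou3f1 stayed past the threshold with each set, at 0.37 and 0.49 with the first and 0.17 and 0.34 with the second.

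Markers of other cells also differed between the tables. Of 4 genes listed for interneurons of the caudal ganglionic eminence, a class that uses Prox1, 3 were called lower in females, against 17.8% of all genes. Reln had 252 CPM in males and 196 CPM in females. The list summed to 259 to 354 CPM in males (mean 308) and 239 to 268 CPM in females, so the sum was mostly Reln. Vip differed by 0.10 (adjusted p = 0.235). Cortical genes were called in both directions (Cux2 0.47, Rasgrf2 -0.21 and Etv1 -0.16), as were thalamic genes (Ramp3 0.33 and Plekhg1 -0.45). The part of such interneurons in the levels of Prox1 was not tested.

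The level of Fibcd1 differed between the male cages. In the F test over the 7 male cages with rank as a term, Fibcd1 was 1 of 8 genes called (F = 8.20, adjusted p = 0.0237 in edgeR's test), and 5.89% of all genes tested were called. The cage means of Fibcd1 ran from 21.0 CPM in cage 2 to 27.4 CPM in cage 5, a ratio of 1.31, while cage mates differed by a median of 0.10 on the log2 scale. The 8 males of cages 1 to 4 had 20.2 to 24.7 CPM (21.8 ± 1.43, SD), and the 6 males of cages 5 to 7 had 25.6 to 27.9 CPM (26.8 ± 0.869, SD). The females lay between 22.4 and 26.9 CPM, across the gap between the male sets. The call for Fibcd1 was lost with DESeq2 (adjusted p = 0.0836) and without either mouse of cages 2, 3, 5 or 7, with adjusted p-values of 0.00856 to 0.0774 when each male was left out in turn. Without dominant male 1, the animal with few cerebellar markers, it was 0.00856. The labels give cage mates neighbouring library numbers, so the cage and the order of the libraries cannot be told apart.

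Wfs1 and Tdo2 had an unadjusted p under 0.05 over the male cages, as did 22.3% of all genes. Wfs1 had 36.9 to 51.1 CPM in cages 1 to 4 and 47.7 to 54.9 CPM in cages 5 to 7 (adjusted p = 0.141 in edgeR's F test). The cage means of Tdo2 ran from 1.39 to 2.72 CPM, a ratio of 1.96 and the largest among the 8 genes in males (adjusted p = 0.173). C1ql2 had 5.24 to 6.68 CPM and 5.95 to 8.03 CPM in the same sets (adjusted p = 0.585). In females, 0 of 8 genes were called over the 4 pairs and 0 had an unadjusted p under 0.05, with 0.0740% and 5.11% of all genes. Cage means of Fibcd1 ran from 23.8 to 25.7 CPM there, a ratio of 1.08.

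**Figure D3:**
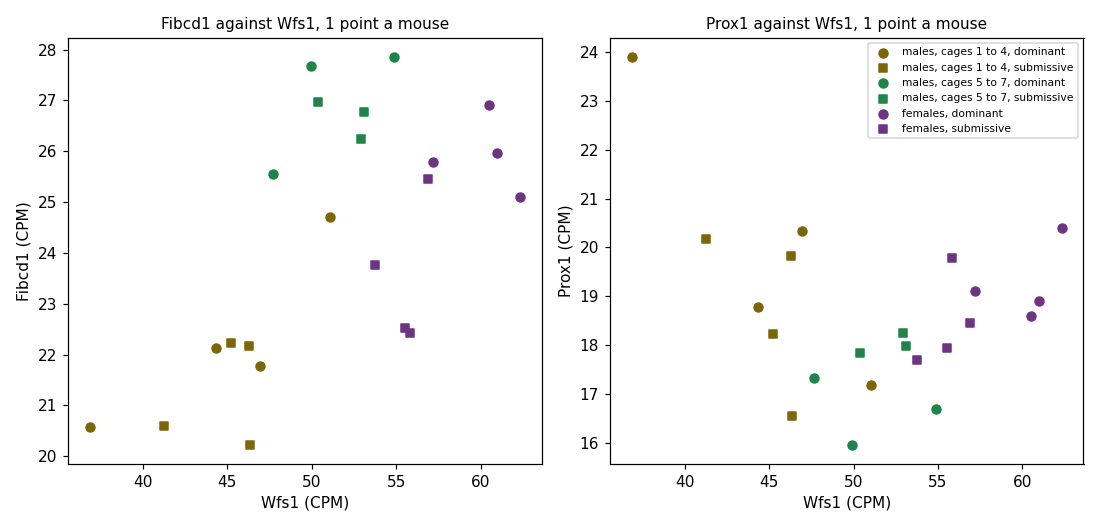
Each point is a mouse, with Wfs1 in CPM on the x axes and Fibcd1 (left) or Prox1 (right) in CPM on the y axes, which do not start at 0, coloured by the males of cages 1 to 4, the males of cages 5 to 7 and the females, with circles for dominant and squares for submissive mice. The 2 sets of males do not overlap in Fibcd1, and dominant male 4 stands alone with 23.9 CPM of Prox1 and 36.9 CPM of Wfs1.

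Because the males fell into separate sets for Fibcd1, correlations between the genes were computed within each set of males and within the females. Of 84 correlations, 28 pairs in 3 sets, 0 had an adjusted p under 0.05 by exact permutation, and 4 had an unadjusted p under 0.05. Wfs1 and Fibcd1 had r = 0.69 (rho = 0.40, n = 8, exact permutation p = 0.0624 and 0.327) in cages 1 to 4, r = 0.53 (rho = 0.49, n = 6, exact p = 0.283 and 0.356) in cages 5 to 7 and r = 0.67 (rho = 0.64, n = 8, exact p = 0.0709 and 0.0962) in females. The adjusted values were 0.851 to 0.949 for r and 0.978 for rho. Without the 2 mice farthest from the median of Wfs1, r was 0.31, -0.82 and 0.76. This leaves few mice over a narrow range of Wfs1, so it does not show what the relation rested on. Over all 14 males, which span the gap between the sets, r was 0.83 (rho = 0.81, permutation p = 0.00012 and 0.00094). The adjusted values there were 0.00672 for r and 0.0526 for rho. Without the 2 mice farthest from the median of Wfs1, r over all males was 0.83 as well. Tdo2 and Fibcd1 had r = -0.81 (rho = -0.52, n = 8, exact p = 0.0164 and 0.197) and -0.86 (rho = -0.71, n = 6, exact p = 0.0375 and 0.136) in the male sets and 0.09 (rho = 0.05, n = 8, exact p = 0.831 and 0.935) in the females, with adjusted values of 0.635 to 0.987 for r and 0.978 to 1.00 for rho. Without the 2 mice farthest from the median of Tdo2, these r were -0.48, -0.58 and 0.03. Genes of the same field did not correlate throughout, with median r over the 6 dentate pairs of 0.12, 0.28 and 0.29 and over the 6 CA pairs of 0.29, -0.14 and -0.17.

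**Figure D4:**
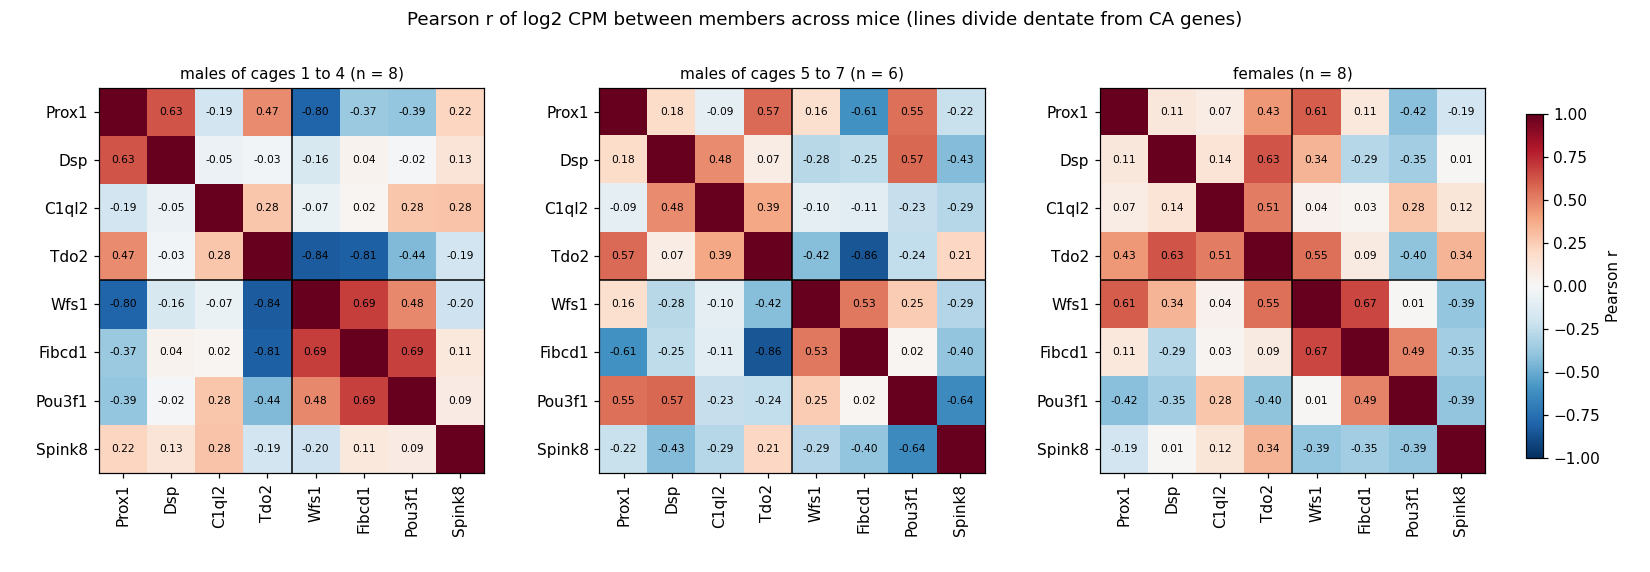
Cells give Pearson r of log2 CPM for each pair of the 8 genes within the males of cages 1 to 4, the males of cages 5 to 7 and the females, from -1 (blue) to 1 (red), and lines divide dentate from CA genes. Wfs1 and Fibcd1 are positive in all 3 panels (0.69, 0.53 and 0.67), and Prox1 and Wfs1 run from -0.80 to 0.61.

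The genes most like each marker across the 14 males were named by Pearson r of log2 CPM among 14118 genes, as a description. Fibcd1 was most like Slc17a7, the vesicular glutamate transporter of cortical and hippocampal excitatory neurons (r = 0.97), Keap1 (0.97) and Clptm1 (0.96). For Slc17a7, r was 0.90 and 0.91 within the male sets and 0.52 over the 8 females, while Keap1 had 0.94 in cages 1 to 4, 0.11 in cages 5 to 7 and -0.89 over the females. Clptm1 had 0.83 and 0.61 within the male sets and 0.28 over the females. Wfs1 was most like Vapb, Irf2bp1 and Mmp17 (r = 0.92, 0.92 and 0.91), of which Mmp17 had r = 0.84 and 0.98 within the male sets and 0.71 over the females. Vapb had 0.97 in cages 1 to 4 but 0.15 in cages 5 to 7 and -0.30 over the females, and Irf2bp1 had 0.89, 0.81 and -0.03. Spink8 was most like Traf2, Ctso and Vps41 (0.88, 0.85 and 0.83), and Pou3f1 like Efnb3, Vps25 and Syt7 (0.83, 0.82 and 0.81). Among the dentate genes, Prox1 was most like Kctd6, Sh3glb1 and Smurf2 (0.88, 0.88 and 0.86), Dsp like Cobll1, Maml2 and Mertk (0.84, 0.83 and 0.81), C1ql2 like Ppcs, Psmc5 and Aars (0.88, 0.87 and 0.87) and Tdo2 like Hist1h3e, Pcnp and Acp1 (0.84, 0.81 and 0.80). Smurf2 had 0.91 in cages 1 to 4 and 0.21 in cages 5 to 7. Of these 24 genes, 11 had a positive r over the females.

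Other genes of the same fields and pathways were followed to place the 8 markers. In the rank comparisons, 0 of the 45 tested entries of 8 lists were called in males and 0 of 46 in females. The smallest p among the 9 other dentate genes belonged to Sema5b in males and to Rfx3 in females, and among the 5 other CA1 genes to Nov and to Man1a. In females the other CA1 genes had differences of both signs, with Man1a at 0.10, Mpped1 at 0.08, Lefty1 at 0.07, Gpr161 at -0.04 and Nov at -0.10 on the log2 scale. In females, Calb2, a calcium-binding protein of young granule neurons and many interneurons, had a log2 difference of -0.18 (unadjusted p = 0.00654 and adjusted p = 0.261 in edgeR's test). Of the same list, Neurod1, Eomes and Igfbpl1 had -0.07, -0.20 and -0.10 while Dcx and Sox11 had 0.16 and 0.11. This list summed to 173 CPM in dominant male 1, the library with few cerebellar markers, and to 202 to 284 CPM in the other males. How much of the sum came from the dentate gyrus was not tested. Pvrl3, listed for CA3, had 0.12 (adjusted p = 0.375), and of that list Grik4, Iyd and Cdh24 had 0.13, 0.41 and 0.02 and Bok had -0.06. The smallest p of the kynurenine list was that of Ido2 in males (-0.38, adjusted p = 1.00) and Ccbl1 in females (-0.21, adjusted p = 0.434).

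Between the tables, 4 of the 9 other dentate genes were called. C1ql3, a relative of C1ql2 in the same synaptic family, had 110 to 157 CPM in males and 155 to 184 CPM in females, higher by 0.38 on the log2 scale (adjusted p = 3.2e-06 in edgeR's test), opposite in sign to C1ql2. Npnt was lower in females (18.0 and 12.7 CPM, log2 fold change -0.50), as were Glis3 (-0.19) and Rfx3 (-0.16). Of the 5 other CA1 genes, Mpped1 was higher (0.27) and Man1a lower (-0.26) in females. In CA2, Cacng5 (0.45) and Necab2 (0.16) were higher of 5 tested, and in CA3, Bok (-0.15) was lower of 5 tested. Dcx, the microtubule protein of young neurons, was lower in females (41.4 and 28.3 CPM, -0.55), the only call among 6 genes of young granule neurons. Of 5 tested relatives of C1ql2 (6 listed), C1ql3 and Cbln1 (0.52) were higher. Of 5 tested desmosome genes beside Dsp (6 listed), Jup (0.38) was higher and Dsg2 (-0.29) lower, while Dsp itself was not called. Of 6 tested genes of the kynurenine pathway, 0 were called, like Tdo2, and Ccbl1 had the smallest p (-0.12, unadjusted p = 0.0646). These lists were thus called in both directions, with shares from 0 of 6 to 4 of 9 against 36.2% of all genes.

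Over the male cages, C1ql3 (adjusted p = 0.0326 in edgeR's F test), Rfx3 (0.0448), Nov (0.00753) and Dcx (0.0120) were called among the 45 tested entries of the same lists, where C1ql3 stands in 2, against 5.89% of all genes. Of the markers of other regions, the striatal Rgs9 (0.0354) and the thalamic Plekhg1 (0.0349) were also called, 1 of 5 tested in each list. C1ql3 had 110 to 131 CPM in cages 1 to 4 and 136 to 157 CPM in cages 5 to 7 without overlap, as Fibcd1 did, and Nov, a secreted matrix protein of CA1, had 97.8 to 124 and 116 to 140 CPM. Dcx ran the other way, with 37.0 to 54.4 and 29.9 to 42.6 CPM. The 5 other CA1 genes together summed to 252 to 311 CPM in the first set and 288 to 318 CPM in the second, and the cortical markers summed to 359 to 415 CPM and 361 to 408 CPM. The striatal markers summed to 240.1 to 316 and 261 to 290.2 CPM in the same sets, and the thalamic markers to 155 to 180.0 and 158 to 184 CPM. The list for interneurons of the caudal ganglionic eminence, mostly Reln, summed to 264 to 354 and 259 to 302 CPM. Purkinje cell markers summed to 18.9 to 514 and 292 to 498 CPM. Dominant male 1 held the lowest value of both lists in the first set. Whether the makeup of the pieces of tissue bears on the level of Fibcd1 was not tested.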

How the data were processed

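Total RNA of 22 right hemispheres was sequenced after removal of ribosomal RNA, with a stranded kit. Per the submitters' processing notes and the paper's methods, the authors checked the reads with FastQC 0.11.8, trimmed adapters (cutadapt 1.15, then bbduk), aligned to mm10 (STAR 2.6.0a) and assigned reads to genes (featureCounts 1.6.2). The deposited values are raw counts per gene of 24421 genes, with exon length beside them.

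Counts were tested with edgeR 4.0.16 (R 4.3.3), by the quasi-likelihood test with TMM factors and Benjamini-Hochberg adjustment over all genes tested, at a threshold of 0.05. Genes were kept by filterByExpr with a minimum of 10 counts, taken as a CPM at the median library size, and 15 counts in all. The minimum had to be reached in as many samples as the smallest group holds, not in every sample. Printed CPM use TMM factors over all 22 samples, and each fit uses its own. Log2 CPM used a prior count of 2. Standard errors are the log2 fold change divided by the square root of F. Rank was the only term within a sex, the tables were compared by a mean for each of the 4 groups, and cages by an F test with rank. Single genes were also tested by exact permutation. With no statement on separate litters, p-values measure the spread between these mice.

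The members and lists were chosen with earlier results of these data known. Named are the 8 members, the 3 genes most like each over the males (mean of at least 1 CPM in both tables), and of each wider list the called genes or that with the smallest p. Correlations within the 3 sets were tested by exact permutation and adjusted over all 84. Those over all 14 males were tested by 100000 random permutations and adjusted together with the same 28 pairs in the females.

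Alternatives were DESeq2 1.42.0, its size factors, no filter, a robust prior, a replicate block, removal of a loess trend on exon length (span 0.3), female pairs with cage or group labels, the 2 sets of male cages and leaving out each mouse. Replicate numbers pair the mice, since library names give them the same cage and cage mates were sacrificed together. Their deviations from the group means correlated by 0.177 on average in males (other pairs -0.0293) and 0.0239 in females (-0.00796). All 54 pairs of samples within groups differed by more than sampling noise. The tests were tested on simulated data.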

Additional observations from a re-analysis of the deposited data

How the results depend on the processing

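The 8 genes had 0 calls for rank in each sex and for the difference between the sexes in all alternatives run, the replicate block and the fits without each mouse included. For DESeq2, 7 of 8 genes in the female rank fit and 5 of 8 in the male cage fit had no adjusted p, and these have no value here. Wfs1 and Pou3f1 stayed called between the tables in all 29 alternatives and C1ql2 in 28, and the number of calls was 3 to 4. Over the male cages, the number was 0 with DESeq2 and 0 to 1 without each male (0 without either mouse of cages 2, 3, 5 or 7). In the exact test in females, 1 gene (Wfs1) had p under 0.05, 0 with the replicate block and 0 to 2 without each female (0 without submissive female 2, 3 or 4, and 2 without dominant female 3). The exact p of Wfs1 was 0.0571 without any 1 of the 4 submissive females, that of Fibcd1 was 0.0286 without submissive female 1, and that of Tdo2 was 0.0286 without dominant female 3.

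Signs near 0 turned with the setting, and the cause was not tested. With the exon length trend removed, alone or with the replicate block, Dsp became 0.013 and 0.013 in males, -0.043 and -0.040 in females and -0.056 and -0.054 between the sexes, Spink8 0.015 and 0.017 in females, and C1ql2 0.0048 and 0.0053 between the sexes. Dsp became 0.021 between the tables with the trend removed. The split of the male cages was chosen after seeing the data. In cages 1 to 4 the rank difference became 0.023 for Dsp, -0.077 for C1ql2 and 0.00094 for Wfs1, and in cages 5 to 7 -0.11 for Prox1. Between the tables, Prox1 became -0.036 with the first set of males, and Dsp 0.0055 and Fibcd1 -0.12 with the second. In females, Spink8 became 0.12 in female cages 1 and 2, and Dsp -0.055, C1ql2 -0.076 and Pou3f1 0.085 in female pairs 3 and 4. On the CPM scale the exact difference of Spink8 in females became -0.040.

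Without each male, rank differences ran from -0.058 to 0.045 (Prox1), -0.10 to 0.060 (Dsp), -0.025 to 0.078 (C1ql2) and -0.057 to 0.034 (Wfs1), and those of the exact test from -0.057 to 0.040, -0.094 to 0.060, -0.036 to 0.065 and -0.058 to 0.038. The fitted differences of Fibcd1 (0.0071 to 0.078), Spink8 (0.018 to 0.12) and Tdo2 (-0.22 to -0.0051) kept their sign in males. Without each female, rank differences ran from -0.071 to 0.13 (Dsp), -0.079 to 0.068 (C1ql2), -0.068 to 0.020 (Pou3f1) and -0.20 to 0.12 (Spink8), and those of the exact test from -0.062 to 0.12, -0.071 to 0.066, -0.060 to 0.028 and -0.18 to 0.14. The fitted differences of Prox1 (0.025 to 0.088), Tdo2 (0.089 to 0.19), Wfs1 (0.094 to 0.13) and Fibcd1 (0.11 to 0.17) kept their sign in females. The differences of the rank effects between the sexes ran from -0.042 to 0.15 (Dsp), -0.10 to 0.046 (C1ql2) and -0.25 to 0.063 (Spink8), with no change of sign for Tdo2 (0.15 to 0.37), Pou3f1 (0.085 to 0.24) and Wfs1 (0.084 to 0.17). Between the tables, the genes not called ran from 0.0025 to 0.053 (Prox1), 0.060 to 0.17 (Tdo2), -0.20 to -0.088 (Dsp), -0.25 to -0.091 (Spink8) and 0.012 to 0.058 (Fibcd1) without each mouse.

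Over all genes, the 14 calls for rank in females became 78 with DESeq2, 84 with no filter, 36 with the replicate block, 8 with block and length trend, 0 with the length trend removed, 5 in female cages 1 and 2 and 120 in female pairs 3 and 4. Without each female the count was 0 (submissive female 1 or 3) to 77 (dominant female 2), and leaving out any of the 8 moved it by over 1.5 times. The 868 calls over the male cages became 547 with the length trend removed, 1152 with a robust prior and 1196 with no filter, and 381 (without submissive male 3) to 2102 (without submissive male 1). Leaving out any other male of cages 1, 3, 5 or 7, dominant male 2 or dominant male 6 also moved it by over 1.5 times. The 11 calls over the female pairs became 5 with DESeq2 and 99 with no filter, 92 without dominant female 2, and 7, 44, 23 and 26 without submissive females 1 to 4. The shares of all genes called, printed beside the counts for the 8 genes, move with these. The block was run for rank in males, in females and between the sexes and in the exact tests, and beside the exact call of Wfs1 it changed no call on the 8 genes there. It was not run between the tables, where cage mates entered as separate mice, and the cage fits hold the cage as a term. Tdo2 rests on 17 to 43 counts per mouse and Spink8 on 22 to 45.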
